A study of Mus musculus with 8 samples.

Results

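Type 2 cytokines and their receptors were examined in forepaw skin of mice that lack keratin 16, a keratin of palm, sole and stressed epidermis. The set was 10 genes chosen by name: the epithelial alarmin cytokines Tslp and Il25, the lymphocyte cytokines Il4, Il5 and Il13, and the receptor genes Il4ra, Il13ra1, Il13ra2, Crlf2 and Il1rl1. Of these, 9 were measured, each by 1 probe set, among 30701 genes in all. The set and the gene lists used below were chosen with earlier results of these data known. Il1rl1, which encodes the IL-33 receptor ST2, was not analysed here. The study used 8 C57Bl/6 mice aged 8 weeks, 1 Affymetrix array per mouse. In the 4 Krt16 null mice (2 males, 2 females) bacterial LacZ stands in place of the Krt16 coding sequence and the paw skin was labelled as lesion. The 4 wild-type (WT) littermates (2 males, 2 females) had paw skin labelled as normal. The labels list no treatment. All null samples are lesions and all WT samples are normal skin, so the effect of the allele and that of the lesion cannot be told apart.

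In barrier tissue, epithelial cells release TSLP, IL-25 and IL-33, which act on group 2 innate lymphoid cells, mast cells, dendritic cells and T helper 2 cells. Those lymphoid cells secrete IL-4, IL-5 and IL-13. IL-4 and IL-13 signal through receptors that contain the IL-4 receptor alpha chain and, by way of JAK kinases, activate the transcription factor STAT6, whereas the second IL-13 receptor chain, encoded by Il13ra2, binds IL-13 with high affinity and is best known as a decoy.

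Signals are log2 values from RMA, and differences are null minus WT. In limma, with sex in the model, a Benjamini-Hochberg adjusted p under 0.05 over all genes counted as a call, and genes are said to rise or fall when they met it. Because probe sets differ in brightness for the same amount of RNA, a signal was set against the negative control probe sets of its array and never against another gene. Medians of those controls were 4.26 to 4.46. On every array the median of all non-control probe sets was lower (3.97 to 4.03) and that of the genes higher (4.76 to 4.84). A signal under the control median is therefore dim, but is not proof that a gene is silent. The Krt16 signal was 7.05 to 9.66 in WT and 6.83 to 6.99 in null, lower in all 4 null arrays, with an adjusted p of 0.0615 in limma; whether its probes lie in the replaced sequence was not analysed here. The labels do not say how the skin was sampled beyond its removal from the paw, and a list of 18 skeletal muscle genes was lower in null, as described beside the results it moves with. In whole skin, fewer cells of a type and less RNA per cell cannot be told apart.

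Of the 9 measured genes, the receptor genes Il4ra and Il13ra2 rose in the null lesions, none fell, and 7 did not pass the test. The 5 cytokine genes were all among those 7. Across all genes, 7.06% were called higher, 5.98% lower and 13% in either direction by the same rule, and the median difference was 0.01, beside 0.12 for the 9 genes. At an unadjusted p under 0.05 in limma the counts for the 9 genes were the same, 2 higher and 0 lower. The share of all genes at that looser threshold was not analysed here, and it cannot be lower than the 13% called. The null and WT arrays did not overlap for Il4ra and Il13ra2, with all null arrays above all WT arrays, which held for 10.1% of all genes. The reverse order held for 8.77% of all genes and for 0 of the 9.

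**Figure D1:**
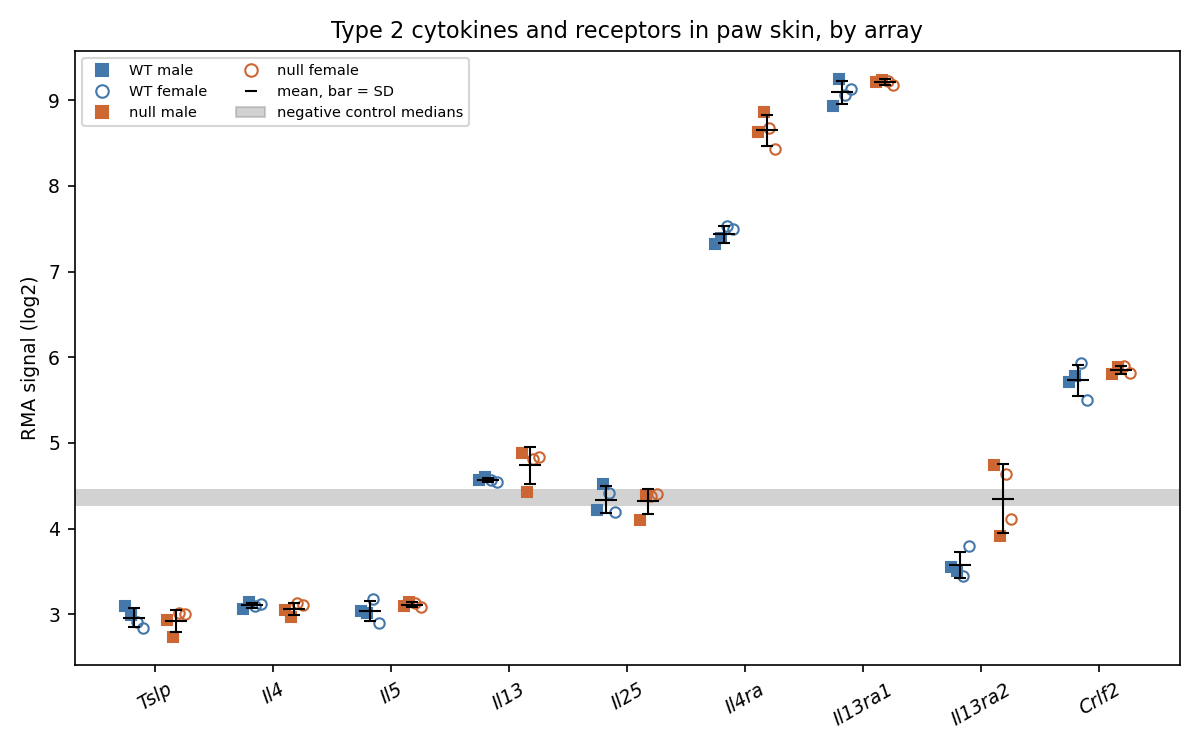
RMA signal on the log2 scale (vertical axis) for the 9 measured genes in each of 4 WT and 4 null arrays, squares for males and open circles for females, with the mean and SD of each genotype. The grey band spans the negative control medians, 4.26 to 4.46. Il4ra and Il13ra2 are the genes whose null and WT points are apart; Tslp, Il4 and Il5 lie below the band on every array.

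The epithelial cytokines showed no called difference. Tslp, the keratinocyte cytokine that acts through the CRLF2 and IL-7 receptor chains, read 2.91 and 2.84 in female WT, 3.09 and 3.0 in male WT, 3.02 and 3.0 in female null and 2.93 and 2.73 in male null skin. All 8 signals lay under the negative control median, and the groups overlapped. The difference was -0.04 (SE 0.08, 95% interval -0.22 to 0.14, limma adjusted p = 0.824, n = 4 mice per genotype). Il25, which encodes a cytokine of the IL-17 family made by tuft and other epithelial cells, read 4.19 to 4.52 in WT and 4.10 to 4.40 in null. Its signal was above the control median of its array in 2 WT and 3 null arrays, and its difference was -0.02 (SE 0.10, 95% interval -0.24 to 0.21, limma adjusted p = 0.942). Signals at or under the negative controls leave these 2 genes without a usable level, so a fall or a rise could have been missed. Rises from such signals were called for some other genes, such as Icos (3.61 to 3.82 in WT, 4.80 to 5.16 in null). Icos is named because it was called, and its probe set does not show how those of Tslp and Il25 respond. No rise of that size was seen in the signals of Tslp or Il25, whose intervals ended at 0.14 and 0.21.

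The cytokine genes of type 2 lymphocytes lie close together on chromosome 11, in the order Il4, Il13, Rad50 and Il5. Il4, which encodes the T helper 2 cytokine IL-4, read 3.07 to 3.14 in WT and 2.97 to 3.13 in null, below the control medians on every array. Its difference was -0.04 (SE 0.05, 95% interval -0.15 to 0.07, limma adjusted p = 0.686). Il5, which encodes the main growth factor of eosinophils, read 2.89 to 3.18 in WT and 3.08 to 3.14 in null, also under the controls throughout. Its difference was 0.08 (SE 0.07, 95% interval -0.07 to 0.23, limma adjusted p = 0.530). As for Tslp, signals under the controls give no level for Il4 or Il5 in either genotype.

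Il13, which encodes the IL-4 relative that acts on epithelium, was the cytokine gene of the set with signals above the control median on all 8 arrays, and its margin was small. It read 4.57 and 4.60 in male WT and 4.57 and 4.55 in female WT skin. In null skin it read 4.88 and 4.42 in males and 4.81 and 4.84 in females. Male null 2 was below every WT array, and the other null arrays were above all of them. The mean was 4.57 ± 0.02 (SD, n = 4) in WT and 4.74 ± 0.21 (SD, n = 4) in null, a difference of 0.17 (SE 0.10, 95% interval -0.05 to 0.39) with an adjusted p of 0.327 in limma. Without male null 2 the difference was 0.28 (SE 0.06) and the limma adjusted p was 0.0342, so 1 array decided that call. No signal of Il13 reached the 95th percentile of its array's negative controls, which was 7.26 to 7.43.

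Il4ra, the receptor chain shared by IL-4 and IL-13, had the clearest difference. In WT skin it read 7.32 and 7.39 in males and 7.53 and 7.50 in females, and in null skin 8.63 and 8.86 in males and 8.68 and 8.43 in females. Every null array lay above every WT array, and the gap between the genotypes was wider than the spread within either. The mean was 7.43 ± 0.10 (SD, n = 4) in WT and 8.65 ± 0.18 (SD, n = 4) in null. The difference was 1.21 (SE 0.09, 95% interval 1.00 to 1.43, limma adjusted p = 0.000119), a 2.32-fold higher signal. In all, 140 of the 30701 genes, Il4ra included, had a difference at least that large. Il4ra was called under all 24 alternative settings, in which its difference was 1.04 to 1.39 and its limma adjusted p 3.05e-05 to 0.0309.

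Il13ra2 rose from a signal under the negative controls. In WT skin it read 3.55 and 3.51 in males and 3.45 and 3.80 in females, and in null skin 4.74 and 3.91 in males and 4.63 and 4.11 in females. All null arrays were above all WT arrays, but only male null 1 and female null 1 were above the control median, and the null arrays were widely spread. The mean was 3.58 ± 0.15 (SD, n = 4) in WT and 4.35 ± 0.40 (SD, n = 4) in null, a difference of 0.77 (SE 0.18, 95% interval 0.37 to 1.18, limma adjusted p = 0.0226). Because WT skin was under the controls, the size of this rise is not exact. The call was lost without male WT 1 (limma adjusted p = 0.0624), without male WT 2 (0.0586) and without female null 1 (0.0751), while the difference stayed between 0.60 and 0.93 with any 1 array left out.

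Il13ra1, which pairs with IL-4R alpha to form the receptor that binds both cytokines, read 8.93 to 9.25 in WT and 9.17 to 9.24 in null. The null range lay inside the WT range. The difference was 0.12 (SE 0.07, 95% interval -0.04 to 0.28, limma adjusted p = 0.340), so the upper bound of the interval for Il13ra1 was under the lower bound for Il4ra. Crlf2, the TSLP receptor chain, read 5.50 to 5.93 in WT and 5.81 to 5.89 in null skin. The null range lay inside the WT range, with a difference of 0.12 (SE 0.09, 95% interval -0.09 to 0.32, limma adjusted p = 0.474). Together with Il13, the receptor genes Il4ra, Il13ra1 and Crlf2 make up the 4 genes above the control median on all 8 arrays. Il4ra and Il13ra1 were above the 95th percentile of the controls on all 8 as well.

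The promoters of the receptor genes that moved, and of their partner Il13ra1, are shown. All 3 genes encode chains of receptors for IL-13, and their differences between null and WT were not alike. Whether the promoters bear on this was not tested. Each line gives the 250 bases before the annotated start in RefSeq (GRCm38.p6), 5′ to 3′ on the gene's strand. Capitals mark matches to a STAT6-type motif (TTC and GAA, 4 bases apart), a general STAT motif (TTC and GAA, 3 bases apart) or an AP-1 motif (TGANTCA), all searched on both strands. The first base before the start is position -1.
Il4ra promoter, chr7:125552021-125552270, plus strand: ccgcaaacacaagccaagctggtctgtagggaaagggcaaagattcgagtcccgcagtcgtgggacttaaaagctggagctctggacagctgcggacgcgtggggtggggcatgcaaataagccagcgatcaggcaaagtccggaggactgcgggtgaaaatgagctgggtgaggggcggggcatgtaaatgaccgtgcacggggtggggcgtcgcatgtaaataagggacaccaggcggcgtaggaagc
Il13ra1 promoter, chrX:36111858-36112107, plus strand: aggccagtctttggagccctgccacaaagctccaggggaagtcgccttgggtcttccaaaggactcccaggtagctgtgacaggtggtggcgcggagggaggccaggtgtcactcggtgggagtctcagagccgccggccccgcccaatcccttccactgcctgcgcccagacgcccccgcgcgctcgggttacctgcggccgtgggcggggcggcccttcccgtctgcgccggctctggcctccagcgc
Il13ra2 promoter, chrX:147429193-147429442, minus strand: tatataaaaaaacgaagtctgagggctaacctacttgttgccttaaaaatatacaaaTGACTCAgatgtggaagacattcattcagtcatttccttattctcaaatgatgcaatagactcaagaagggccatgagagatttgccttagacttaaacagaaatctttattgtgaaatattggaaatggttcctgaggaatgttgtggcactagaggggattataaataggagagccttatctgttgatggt
The Il4ra and Il13ra1 windows were rich in G and C (59.6% and 70.8%) with 17 and 21 CpG dinucleotides and held none of the 3 motifs. The Il13ra2 window had 36% G and C, 1 CpG and the AP-1 type match TGACTCA, which begins at position -193. That motif occurred in 6.75% of 32851 promoter windows of the same length, the STAT6-type motif in 5.85% and the general STAT motif in 7.02%. Of the 10 windows that matched 8 genes of the set, the one other with a match was an Il4 window with the STAT6-type match TTCACAGGAA beginning at position -167. No match overlapped another. A match is a run of letters and not a measured binding site.

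The change was similar in size in males and females for Il13ra2 (0.79 and 0.75). For Il4ra it was 1.39 in males and 1.04 in females. The female minus male difference for Il4ra was -0.35 (SE 0.16) with a limma adjusted p of 0.974. For Tslp the null arrays were below the WT arrays in males (-0.22) and above them in females (0.14). The interaction for Tslp was 0.35 (SE 0.12), with an unadjusted p of 0.018 and an adjusted p of 0.974 in limma, and all of these signals were under the negative controls. None of the 9 genes had a called interaction in limma, and 1, Tslp, had an unadjusted p under 0.05. Across all genes 0.00651% were called and 4.26% had an unadjusted p under 0.05.

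**Figure D2:**
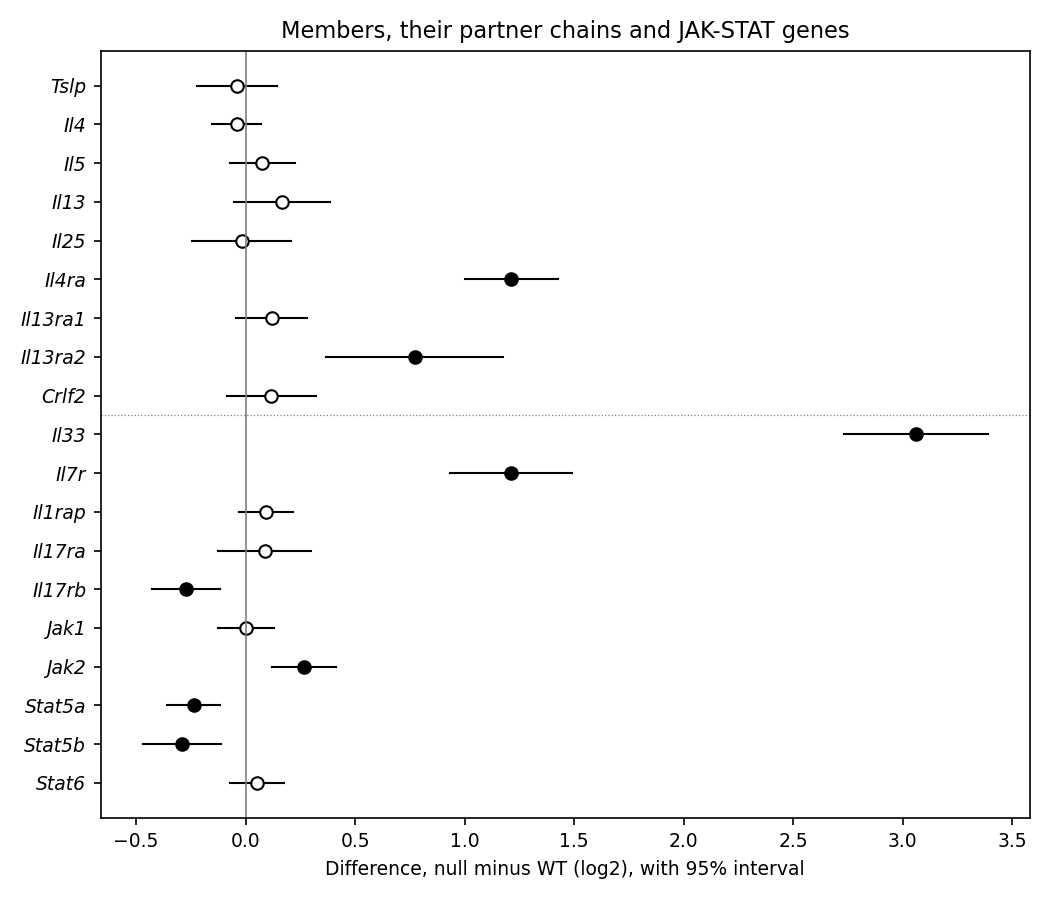
Difference between null and WT signal on the log2 scale (horizontal axis) with its 95% interval from limma, for the 9 genes (above the dotted line) and the named ligand, receptor chains, JAKs and STATs that pair with them. Filled points were called at an adjusted p under 0.05. Il33, Il4ra and Il7r lie farthest to the right, at 3.06, 1.21 and 1.21.

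The other chains and ligands of these receptors were read from a list of 17 genes, of which 14 were measured. Of those 14, 3 rose, 2 fell and 9 did not pass. The median difference was 0.02, and over all genes 7.06% were called higher and 5.98% lower. Il33, the alarmin that binds ST2, read 5.47 to 6.25 in WT and 8.71 to 9.12 in null skin. The genotypes were far apart, with means of 5.89 ± 0.33 and 8.95 ± 0.18 (SD, n = 4 each) and a difference of 3.06 (SE 0.15, limma adjusted p = 5.4e-06), an 8.34-fold higher signal. Thus of the 3 epithelial alarmin cytokine genes, Il33 rose while Tslp and Il25 were at or under the negative controls. The IL-33 co-receptor chain Il1rap differed by 0.09 (SE 0.05, limma adjusted p = 0.321).

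Il7r, the chain that joins CRLF2 in the TSLP receptor and also serves IL-7, read 4.28 and 4.76 in WT males, 4.84 and 4.83 in WT females, 6.02 and 5.60 in null males and 6.06 and 5.88 in null females. All null arrays were above all WT arrays. Its difference was 1.21 (SE 0.12, 95% interval 0.93 to 1.49, limma adjusted p = 0.000543), while the other chain of the TSLP receptor, Crlf2, did not pass. Of the IL-25 receptor chains, Il17rb fell by 0.27 (SE 0.07, limma adjusted p = 0.0325) and Il17ra differed by 0.09 (SE 0.09, limma adjusted p = 0.639). Osmr, a chain of the oncostatin M and IL-31 receptors, rose by 0.38 (SE 0.06, limma adjusted p = 0.00552; 0.21 with an adjusted p of 0.483 when the skeletal muscle mean was a covariate), and the IL-31 receptor gene Il31ra fell by 0.28 (SE 0.07, limma adjusted p = 0.0324). Leaving out any of 6 arrays (both female WT, female null 1, male WT 2, both male null) ended the call for Il17rb, with adjusted p of 0.056 to 0.102. For Il31ra 5 arrays did so (number 2 of each group and male null 1), with adjusted p of 0.0639 to 0.097.

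In the promoter windows of these partners, the STAT6-type match TTCTGGGGAA began at position -36 of 1 of the Il33 windows and the general STAT match TTCAGGGAA began at position -142 of the Il7r window. The Il33 window with the match is shown because Il33 had the largest difference among the partner genes. The other Il33 window held no match to any of the motifs and is not shown.
Il33 promoter, chr19:29924863-29925112, plus strand: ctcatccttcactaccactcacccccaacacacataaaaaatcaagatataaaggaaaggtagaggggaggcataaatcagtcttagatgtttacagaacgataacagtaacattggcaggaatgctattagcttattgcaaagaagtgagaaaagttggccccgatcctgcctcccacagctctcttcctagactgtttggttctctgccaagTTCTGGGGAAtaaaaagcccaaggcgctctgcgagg

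Genes that carry the signal of these receptors were read from a JAK-STAT list. Of 15 measured, 3 rose, 3 fell and 9 did not pass, with a median of 0.03; over all genes 13% were called in either direction. Stat6, the main transcription factor of IL-4 and IL-13 signalling, differed by 0.05 (SE 0.05, limma adjusted p = 0.615), and Jak1, the kinase bound by IL-4R alpha, by 0.00 (SE 0.06, limma adjusted p = 0.987). Stat3 rose by 0.26 (SE 0.05, limma adjusted p = 0.0128), Jak2 by 0.27 (SE 0.06, 0.0278) and Socs3, an inhibitor of cytokine signalling, by 0.37 (SE 0.10, 0.0493). Irs1, an adaptor of the insulin and IL-4 receptors, fell by 0.76 (SE 0.13, limma adjusted p = 0.00743), from 5.54 to 5.98 in WT to 4.80 to 5.26 in null. When the skeletal muscle mean was added to the fit, the Irs1 difference was -0.28 (SE 0.20, limma adjusted p = 0.664). The STAT5 genes, whose products act downstream of TSLP and IL-7, fell by 0.24 (Stat5a, SE 0.05, limma adjusted p = 0.0212) and 0.29 (Stat5b, SE 0.08, 0.0427). The calls for Jak2, Socs3, Stat5a and Stat5b each ended when any of 6 arrays was left out, with adjusted p of 0.0506 to 0.149. Both male WT arrays, male null 2 and female null 1 were among the 6 for all of them; the others were female WT 2 and female null 2 for Socs3, male null 1 and female WT 1 for Jak2, and male null 1 and female null 2 for Stat5a and Stat5b. The Stat5b call was also lost with same-numbered mice as a block (limma adjusted p = 0.0521).

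Genes that IL-4 and IL-13 induce in macrophages, epithelium and fibroblasts were read from a list of 22, all measured. Of these, 5 rose (22.7%, beside 7.06% of all genes), 0 fell and 17 did not pass in limma, and the median difference was 0.20. The list was chosen with earlier results of these data known, so these shares are no test of enrichment. At an unadjusted p under 0.05 in limma the list held 10 genes, of either direction. The share of all genes under that unadjusted p was not analysed here. It cannot be lower than the 13% called, and this count has no background to be read against. Chil4 and Chil3, chitinase-like proteins of alternatively activated macrophages and irritated epithelium, rose the most. Chil4 read 2.93 to 4.14 in WT, under the controls, and 9.35 to 10.5 in null, a difference of 6.81 (SE 0.32, limma adjusted p = 5.05e-06). Chil3 read 3.09, 3.31 and 3.17 in 3 WT arrays, 5.47 in female WT 1, and 7.59 to 8.59 in null, a difference of 4.47 (SE 0.49, limma adjusted p = 0.000798). Both genes thus went from at or under the controls in most WT arrays to well above them in all null arrays, and the sizes are not exact.

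Arg1, which encodes arginase, read 6.77 to 7.34 in WT and 8.99 to 9.21 in null, a difference of 2.01 (SE 0.11, limma adjusted p = 1.4e-05). Alox15, a lipoxygenase, rose from under the controls (3.73 to 3.89) to 4.59 to 5.25, by 1.08 (SE 0.13, limma adjusted p = 0.00131). Postn, the matricellular protein periostin, rose by 0.97 (SE 0.21, limma adjusted p = 0.0168), and that call ended without male WT 1 (0.0513) or female null 1 (0.0608). With the muscle list mean as a covariate Postn differed by 0.32 (SE 0.34, limma adjusted p = 0.807). Without male null 2, 8 of the 22 were called higher, and without male null 1 a single gene was called lower. Of the 30701 genes in all, 1205 were called higher without male null 2 and 1738 lower without male null 1. The list names genes by what can induce them, and its members also answer other signals, so the counts say nothing of the inducer.

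**Figure D3:**
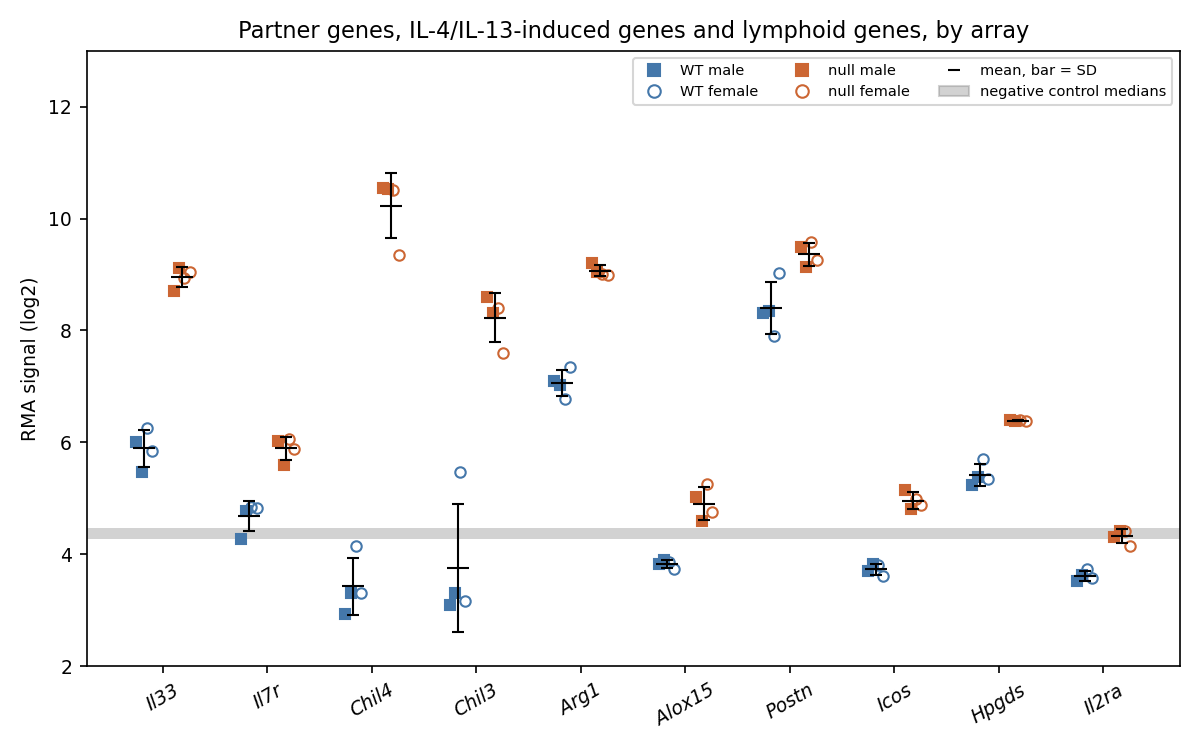
RMA signal on the log2 scale (vertical axis) in each of 4 WT and 4 null arrays for 2 partner genes (Il33, Il7r), 5 genes induced by IL-4 and IL-13 (Chil4 to Postn) and 3 genes of the lymphoid list (Icos to Il2ra), with mean and SD; the grey band spans the negative control medians. All null points of each gene lie above all of its WT points; for Il33 they are 8.71 to 9.12 against 5.47 to 6.25.

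Markers of the cells that make or receive these cytokines were read beside the receptor results; their part in those results was not tested. Of 14 measured genes of T helper 2 and group 2 innate lymphoid cells, 5 rose and 2 fell, with a median of 0.11. Over all genes 7.06% were called higher and 5.98% lower, and these shares stand beside the count of every marker list. The 5 became 2 with only genes above the negative controls kept. They became 1 with only genes above the median gene, and 1 with females only. Icos, a co-stimulatory receptor of T cells and innate lymphoid cells, rose from 3.61 to 3.82 in WT, under the controls, to 4.80 to 5.16 (difference 1.22, SE 0.09, limma adjusted p = 6.87e-05). Hpgds, a prostaglandin D synthase, rose by 0.97 (SE 0.09, limma adjusted p = 0.000267), Il2ra, the IL-2 receptor alpha chain, by 0.71 (SE 0.08, 0.000936), and Ccr8, a chemokine receptor, by 0.41 (SE 0.07, 0.0062). Il2ra and Ccr8 were under the control median in WT, and Ccr8 in null as well. The transcription factors Rora and Maf fell by 0.73 (SE 0.07, limma adjusted p = 0.000351) and 0.45 (SE 0.07, 0.00354). Genes of this list, both those that rose and those that fell, can also be made by other types of cell. The list mean was 5.12 to 5.23 in WT and 5.30 to 5.42 in null arrays.

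Of 12 T cell markers 1 rose, Cd3g, which stayed under the controls on all arrays (difference 0.20, SE 0.05, limma adjusted p = 0.0387), and that call ended when any array but male null 1 was left out or with same-numbered mice as a block (0.0537). The T cell list mean was 4.16 to 4.28 in WT and 4.27 to 4.36 in null. Cd3e read 4.03 to 4.18 in WT and 4.09 to 4.45 in null (difference 0.25, SE 0.08, limma adjusted p = 0.0791), and it was called higher without male null 1 (difference 0.33, SE 0.06, adjusted p = 0.0119), when 2 of the 12 markers were called. Of 12 mast cell and basophil markers 1 fell, the IgE receptor beta chain Ms4a2, by 0.37 (SE 0.07, limma adjusted p = 0.0106), from a signal under the controls; the list mean was 4.94 to 5.23 in WT and 4.58 to 5.01 in null. Without male null 1, 5 of the 12 were called lower, beside 1738 of the 30701 genes in all. Kit differed by 0.08 (SE 0.12, limma adjusted p = 0.763). Cpa3, the mast cell carboxypeptidase, read 7.61 to 8.37 in WT and 5.55 to 7.83 in null with an adjusted p of 0.0744, and was called lower without male null 1 (difference -1.69, SE 0.21, adjusted p = 0.00284).

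Of 6 measured eosinophil markers 2 rose. The eotaxin receptor Ccr3 was under the controls on all arrays (difference 0.95, SE 0.24, limma adjusted p = 0.0338), and its call ended without any of 5 arrays (female null 1, female WT 2, male null 2, both male WT; adjusted p 0.0529 to 0.106). Ear6 was above the control median in 3 null arrays and no WT array (difference 0.44, SE 0.08, limma adjusted p = 0.00715). Epx, the eosinophil peroxidase, was under the controls on every array. The list mean was 3.52 to 3.66 in WT and 3.76 to 3.96 in null. In the macrophage and dendritic cell list, 4 of 11 rose and 2 fell, among them the integrin Itgax (difference 0.79, SE 0.11, limma adjusted p = 0.00304) and the scavenger receptor Cd163, which fell by 0.97 (SE 0.21, 0.0162; 0.0594 without female null 1). With same-numbered mice as a block 2 rose and 4 fell. With 1 array left out 2 to 3 rose, and 5 fell without male null 1, 0 without female null 1 and 1 without each of the others. The list mean was 5.71 to 6.12 in WT and 5.48 to 6.04 in null.

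The labelled tissue was checked against its markers. All 12 keratinocyte markers had mean signals above the lowest control median, with 1 called higher and 4 lower: the sole keratin Krt9 fell by 2.47 (SE 0.26, limma adjusted p = 0.000694), the desmoglein Dsg3 rose by 1.10 (SE 0.13, 0.00116) and the basal keratin Krt14 differed by 0.20 (SE 0.11, 0.317). The keratinocyte list mean was 10.9 to 11.1 in WT and 10.7 to 10.8 in null. Among 9 fibroblast markers 2 fell, Dpt by 0.86 (SE 0.23, limma adjusted p = 0.0364) and Dcn by 0.83 (SE 0.22, 0.04). Each of these calls ended when any of 6 arrays was left out (adjusted p 0.061 to 0.116), namely male WT 1, male null 2, female WT 1 and both female null arrays for both genes, with male WT 2 for Dpt and female WT 2 for Dcn. The list mean was 7.94 to 8.47 in WT and 7.70 to 8.22 in null. Col1a1 differed by 0.10 (SE 0.11, limma adjusted p = 0.636). Among 8 endothelial markers 2 rose, Vwf by 0.27 (SE 0.06, limma adjusted p = 0.0142; 0.056 without male null 2) and Pecam1 by 0.27 (SE 0.07, 0.0288; lost without either male null, either female null, male WT 2 or female WT 2), and the list mean was 5.83 to 6.23 in WT and 6.09 to 6.25 in null.

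Skeletal muscle genes were the marker list that moved most uniformly: 17 of 18 fell and 0 rose, with a median of -0.88 and list means of 9.0 to 9.72 in WT and 8.18 to 8.74 in null arrays. Pygm, Neb and Acta1, a muscle phosphorylase, a giant thin-filament protein and skeletal actin, fell by 1.07, 1.05 and 0.88 (SE 0.19, 0.18 and 0.15, limma adjusted p = 0.00817, 0.00628 and 0.00613). With 1 array left out, 9 to 17 were called lower: 9 without male null 2 or female null 1, 10 without male WT 1 and 11 without female null 2. Il4ra and Il13ra2 were measured beside that list mean in every array. With the muscle mean as a further covariate, Il4ra differed by 1.23 (SE 0.19, limma adjusted p = 0.0309), as large as without it. Il13ra2 also kept its size (0.77) but with an SE of 0.37 and an adjusted p of 0.427, and Il7r differed by 1.27 (SE 0.25, 0.0672). Sex and the muscle mean together accounted for 75.3% of the variance of the genotype term, so this covariate and genotype are hard to separate with 8 arrays. Il33 differed by 3.42 (SE 0.26, 0.00106) in that fit. Of the 39 called genes among the members and the other genes of the lists named here, 8 were still called with the muscle covariate: Il4ra, Il33, Chil4, Chil3, Arg1, Icos, Hpgds and Krt9. Several of the others shrank as well as losing the call. Beside Postn, Irs1 and Osmr, Cd163 went from -0.97 to -0.30 (limma adjusted p = 0.82), Dsg3 from 1.10 to 0.59 (0.178), Ccr3 from 0.95 to 0.58 (0.717) and Ms4a2 from -0.37 to -0.17 (0.677). Dcn went from -0.83 to -0.01 (limma adjusted p = 0.999), and Stat5b and Dpt changed sign. By list, the genes called higher and lower became 1 and 0 among the partner genes, 0 and 0 in the JAK-STAT list, 3 and 0 among those induced by IL-4 and IL-13, and 2 and 0 among T helper 2 and group 2 innate lymphoid cell genes. Calls were lost across the array as well: over all genes, 2168 higher and 1837 lower became 164 and 66.

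**Figure D4:**
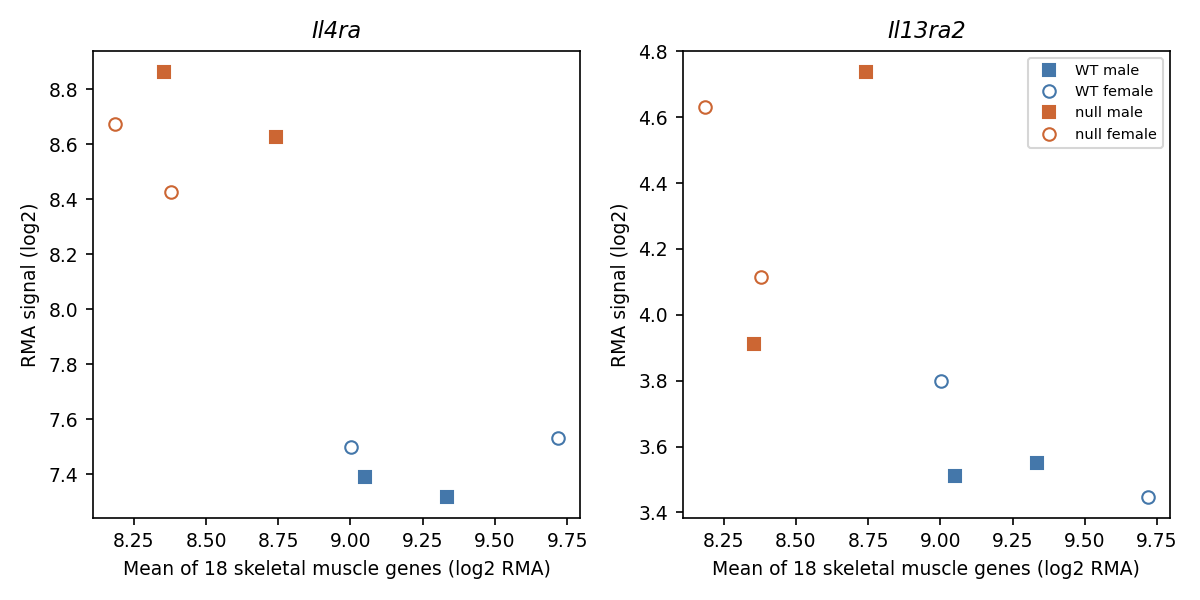
RMA signal on the log2 scale (vertical axes) of Il4ra and Il13ra2 against the mean signal of 18 skeletal muscle genes (horizontal axes) in the 8 arrays, squares for males, open circles for females, blue for WT and orange for null. The null arrays lie at the left (8.18 to 8.74) and the WT arrays at the right (9.0 to 9.72), so genotype and the muscle mean do not overlap. Il4ra is 7.32 to 7.53 in WT and 8.43 to 8.86 in null.

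The genes whose profiles over the 8 arrays lay closest to Il4ra, by root mean square distance after each profile was centred on its own mean, were B4galnt1 (0.0925), the gap junction gene Gjb2 (0.123) and Stom (0.131). Their differences were 1.08, 1.21 and 1.09, against 1.21 for Il4ra. For Il13ra2 the closest were Pyy (0.123), Parp8 (0.176) and Itgax (0.178), with differences of 0.89, 0.82 and 0.79. These were selected among all genes for their likeness and carry no test.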

How the data were processed

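RNA of each mouse was labelled with a whole-transcript kit and read on 1 single-colour array. The deposited values are log2 signals that the authors made with Partek and RMA, per the submitters' processing notes; the sources used here give no version, setting or genome build. The 72688 probe sets ran from 1.36 to 13.6. The 6732 controls were left out, the array annotation listed 32750 of the rest, and 31258 had 1 gene after symbols were updated through RefSeq names (GRCm38.p6), with the brightest probe set standing for a gene. Probe sets of several genes were not named, which left out Il1rl1, Il2rg, Csf2rb, Csf2rb2, Jak3, Gata3 and Areg, among others. RMA compresses large changes.

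Members and lists were chosen with earlier results of these data known. All 30701 genes were fitted in limma 3.58.1 (R 4.3.3; lmFit, eBayes with a trend) with a sex term, leaving 5 residual degrees of freedom; interactions were fitted on the 4 group means, leaving 4. The fits were tested on simulated data. Arrays have no read depth, and their number limits the precision. The labels give 1 array per mouse.

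Genes named are the measured members; the called, non-overlapping genes of each pathway list, at most 6, with the partners of members; 2 called genes or the defining genes of each marker list; and the 3 profiles closest to each called member. The labels number mice within each sex and genotype. Across genes, the deviations from the group means of mice that share a number correlated at 0.316 (males) and 0.115 (females), so a fit with pairs as a block was an alternative. Others were the sex term, normalization, filters on dim genes, probe set choice, the prior, array weights, 1 sex, a muscle covariate, a 2-fold minimum and each array left out.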

Additional observations from a re-analysis of the deposited data

Results flagged for a closer look

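Single arrays far from the other 3 of their genotype were marked in 10 of 112 groups of 4 examined; chance marks about 1 in 20. Among the cytokine genes, Il13 was 4.423 in male null 2 (nearest other null array 4.809), and Il25 was 4.1 in male null 1 (nearest 4.381). Il7r was 4.278 in male WT 1 (nearest other WT array 4.763). Socs3 was 5.203 in female WT 2 (nearest 5.607). Chil4 was 9.35 in female null 2 (nearest 10.51), and Chil3 was 5.469 in female WT 1 (nearest 3.309). Cd3e was 4.086 in male null 1 (nearest 4.438), and Epx was 4.002 in female null 2 (nearest 3.886). Female WT 1 also had the highest WT signals of Dpt, 9.558 (nearest 8.96), and Acta1, 10.64 (nearest 10.12).

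Tslp was marked because its difference had opposite signs in males and females, with every null array below every WT array in males and above in females. The female minus male difference was 0.3534, with a limma adjusted p of 0.974, at signals under the negative controls.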

How the results depend on the processing

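Il4ra was called higher under all 24 alternatives run. The count of higher genes among the 9 fell from 2 to 1 with either filter on dim genes, which remove Il13ra2, with males only, with females only, with the muscle covariate and with a 2-fold minimum. With 1 array left out it was 1 to 3: 1 without male WT 1, male WT 2 or female null 1, and 3 without male null 2. No alternative gave a lower gene among the 9. With same-numbered mice as a replicate block the counts remained 2 higher, 0 lower and 0 interactions; of the 39 called members and named list genes, the block ended 2 calls (Stat5b, Cd3g). Testing all non-control probe sets ended 7 (Il31ra, Il17rb, Socs3, Stat5b, Cd3g, Dcn, Pecam1), no sex term 3 (Socs3, Jak2, Pecam1), the robust prior 3 (Ccr3, Dpt, Dcn), median centring 2 (Stat5b, Jak2), repeated quantile normalization 1 (Stat5b), males only 21, females only 31, the muscle covariate 31 and a 2-fold minimum 27; array weights added Cd3e (0.29, limma adjusted p = 0.0272) and Cpa3 (-1.56, 0.021). Against the 95th percentile of the controls, 2 genes in place of 4 were above them on all arrays. With the muscle covariate Stat5b (0.014) and Dpt (0.069) reversed; the cause was not tested. Over all genes, 2168 higher and 1837 lower calls became 164 and 66 with the muscle covariate, 801 and 388 in males, 230 and 142 in females, and 1205 to 2288 and 840 to 1865 with 1 array left out. Naming probe sets of several symbols by their gene ID, which was the mapping used first and was replaced after results had been seen, changed no difference among the 9; it moved the median of the IL-4 and IL-13 list from 0.20 to 0.13 through 1 gene, Clca1. Signals at or under the controls limit Tslp, Il4, Il5, Il25 and Il13ra2.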
